A study of Mus musculus with 26 samples.

Results

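In lineage-negative mouse bone marrow, 10876 distal stretches of 1 kb carried the histone mark H3K4me2 both in GFI1-WT and in GFI1-KD cells at levels that differed by less than 3-fold. They made up most of the 11654 marked distal bins and lay among 62875 marked autosomal bins in all. Of the 10876 bins 72.3% lay inside genes, among them the blood regulators Runx1, Erg and Fli1. The share was 74.4% in marked bins within 10 kb of a gene end, under the same ratio bounds. Weakly marked members leaned towards the GFI1-KD library, while the strongest were nearly level. In leukaemia cells, 41.6% (H9M) and 43.8% (MN1) of the tested genes nearest to them were called higher after LSD1 knockout, against 26.1% and 28.7% of all tested genes.

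The bins were chosen by the ChIP-seq values themselves. Each is a fixed 1-kb window of the mm10 autosomes with 60 or more read starts summed over both libraries, a centre over 10 kb from both ends of every annotated gene, and a ratio of GFI1-KD over GFI1-WT between 1/3 and 3. The ratio is taken over RPM + 1, where RPM are reads scaled to a library of 1000000 kept reads. A further 371 distal bins lay at or above the upper bound and 407 at or below the lower bound. H3K4me2 levels and their ratio in these bins are therefore descriptions, and no test was made on them. No minimum was set for either library alone: chr2:160455001-160456000 was kept with 10 reads in GFI1-WT and 50 in GFI1-KD. Of the members, 241 held exactly 60 reads, and 259 distal bins with 59 reads fell just short. The member with the highest ratio, chr5:108031001-108032000, stood at 2.998, and the nearest excluded bin, chr16:89994001-89995000, at 3.004. At the other bound chr8:114879001-114880000 was kept with a ratio of 0.335, and chr5:23444001-23445000 was left out with 0.332.

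The ChIP-seq part of the series holds 1 GFI1-WT and 1 GFI1-KD library from marrow of untreated C57BL/6 mice, depleted of lineage-positive cells on magnetic columns, with 8949072 and 9538627 reads of mapping quality 10 or more. How GFI1-KD was achieved, and how many animals were used, is not given in the labels, and the title of that library reads GFI-KD. RNA-seq was made in another system: mouse myeloid cells transformed by Hoxa9 and Meis1 (H9M) or by MN1, as control (CTL) or LSD1 knockout (KO), with 3 libraries in each of 8 groups. The 12 libraries without all-trans retinoic acid (W/O ATRA) are compared here, and the groups with 1 µM ATRA enter only the estimate of the spread. Knockout cells had received 0.1 µM 4-OHT for 72 hours, whether control cells received it is not given, and all of them, knockouts too, are labelled as of a strain without CreERT2. The labels do not state that replicates were separate cultures, so p-values measure the spread between these libraries, and H9M and MN1 libraries carry different run tags.

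Kdm1a, which encodes LSD1, checked the knockout labels. It stood at 0.937, 0.998 and 0.952 counts scaled to a library total of 1000000 (CPM) in H9M KO against 138, 140 and 139 in H9M CTL, and at 1.41, 1.28 and 1.58 against 187, 193 and 192 in MN1. At the promoters of 8 progenitor markers the summed H3K4me2 signal within 1 kb of the start was 219 RPM in GFI1-WT and 267 in GFI1-KD, against 2.35 and 1.99 at 2 B cell markers. It was 7.60 and 3.04 at 4 T cell markers, with ranges of 0.223 to 6.03 and 0.210 to 1.68. At 4 granulocyte and monocyte markers it was 20 in GFI1-WT, with a range of 2.57 to 6.59, and 49.8 in GFI1-KD, with a range of 0.944 to 27.6. These 4 did not move together: reads at the promoters of Itgam (59 and 187) and Mmp8 (59 and 263) were higher in GFI1-KD, and those at Ly6g (38 and 9) and Ltf (23 and 16) lower. The libraries also differed in the share of autosomal reads that fell in bins of 60 or more reads, 58.4% in GFI1-WT and 63.7% in GFI1-KD, and in reads on the Y chromosome, 1530 against 98.

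H3K4me2 is laid down on nucleosomes at promoters and enhancers that are active or poised for use. LSD1 removes methyl groups from mono- and dimethylated H3K4, and the zinc-finger repressor GFI1 recruits LSD1 together with CoREST to its targets in myeloid cells. Distal H3K4me2 is commonly read as a map of enhancers, many of which are bound in blood progenitors by RUNX, ETS and GATA factors.

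Distance from a gene's ends does not exclude an alternative start inside the gene, and some members held one. RefSeq lists 1320 autosomal starts on GRCm38.p6 that lie in bins over 10 kb from every gene end. Of these, 425 starts, or 32.2%, fell in 386 of the members, 1 in a distal bin 3-fold or more higher in GFI1-KD, 10 in bins 3-fold or more lower, and 884 in bins under 60 reads. The marked starts were richer in CG dinucleotides than the unmarked ones. In the window from 250 bases before to 50 bases after the start, starts in members held a median of 15 CG dinucleotides (quartiles 6 to 26) and 58.3% G + C, and those in bins under 60 reads held 4 (quartiles 2 to 6) and 47.3%. A ratio of observed to expected CG above 0.6 was found in 50.8% of the former, 4.0% of the latter and 36.4% of all 31396 autosomal starts. These are descriptions over starts, several of which share a gene.

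The sequences below are the 250 bases before each start, read 5′ to 3′ on the gene's strand from RefSeq (GRCm38.p6), with CG dinucleotides in capitals. Nol4l and Specc1 have the member bins with the most reads among those holding a start. Cbfa2t3 (a corepressor of the ETO family), Runx1 (a master regulator of blood stem cells), Satb1 (a chromatin organiser of lymphoid cells) and Erg (an ETS factor of stem cells) are the listed regulators with the most. Sgms1 and Rreb1 are shown for contrast: both have many member bins, and these internal starts of theirs had the fewest reads.
Nol4l (chr2:153444480-153444729, minus strand): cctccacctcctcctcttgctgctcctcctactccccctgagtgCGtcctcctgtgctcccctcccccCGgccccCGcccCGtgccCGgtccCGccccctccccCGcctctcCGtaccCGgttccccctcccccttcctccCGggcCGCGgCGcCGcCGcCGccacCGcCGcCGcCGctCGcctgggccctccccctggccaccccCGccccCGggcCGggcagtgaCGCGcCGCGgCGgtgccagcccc
Specc1 (chr11:62076774-62077023, plus strand): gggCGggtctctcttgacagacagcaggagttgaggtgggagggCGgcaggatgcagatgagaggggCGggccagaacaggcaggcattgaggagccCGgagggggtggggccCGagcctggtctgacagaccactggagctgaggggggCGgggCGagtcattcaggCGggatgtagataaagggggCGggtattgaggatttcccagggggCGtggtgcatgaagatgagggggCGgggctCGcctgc
Cbfa2t3 (chr8:122678176-122678425, minus strand): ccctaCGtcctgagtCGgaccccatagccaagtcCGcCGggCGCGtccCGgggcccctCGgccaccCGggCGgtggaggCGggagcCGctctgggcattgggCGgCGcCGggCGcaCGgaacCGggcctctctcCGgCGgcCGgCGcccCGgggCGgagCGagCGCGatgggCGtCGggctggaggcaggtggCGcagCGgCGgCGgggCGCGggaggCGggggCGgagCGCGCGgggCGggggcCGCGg
Runx1 (chr16:92697330-92697579, minus strand): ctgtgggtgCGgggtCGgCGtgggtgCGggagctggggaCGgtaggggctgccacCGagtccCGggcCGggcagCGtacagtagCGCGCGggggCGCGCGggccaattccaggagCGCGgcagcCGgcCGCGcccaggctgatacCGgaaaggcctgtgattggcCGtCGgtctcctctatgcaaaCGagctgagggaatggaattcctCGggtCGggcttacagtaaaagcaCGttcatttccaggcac
Satb1 (chr17:51812185-51812434, minus strand): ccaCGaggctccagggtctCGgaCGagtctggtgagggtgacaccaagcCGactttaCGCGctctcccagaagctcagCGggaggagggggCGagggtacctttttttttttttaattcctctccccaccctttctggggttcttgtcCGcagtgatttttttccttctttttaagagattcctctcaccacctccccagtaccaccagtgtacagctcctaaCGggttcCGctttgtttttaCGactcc
Erg (chr16:95459349-95459598, minus strand): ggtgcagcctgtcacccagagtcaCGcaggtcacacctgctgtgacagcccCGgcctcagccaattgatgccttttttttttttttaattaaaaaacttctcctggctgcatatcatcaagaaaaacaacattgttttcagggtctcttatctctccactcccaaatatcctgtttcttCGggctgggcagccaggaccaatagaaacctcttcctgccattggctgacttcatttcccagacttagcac
Sgms1 (chr19:32349317-32349566, minus strand): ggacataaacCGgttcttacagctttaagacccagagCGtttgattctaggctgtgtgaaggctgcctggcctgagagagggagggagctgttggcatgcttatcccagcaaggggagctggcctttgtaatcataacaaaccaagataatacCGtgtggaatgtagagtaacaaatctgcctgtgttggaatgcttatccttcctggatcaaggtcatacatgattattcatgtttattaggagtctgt
Rreb1 (chr13:37888184-37888433, plus strand): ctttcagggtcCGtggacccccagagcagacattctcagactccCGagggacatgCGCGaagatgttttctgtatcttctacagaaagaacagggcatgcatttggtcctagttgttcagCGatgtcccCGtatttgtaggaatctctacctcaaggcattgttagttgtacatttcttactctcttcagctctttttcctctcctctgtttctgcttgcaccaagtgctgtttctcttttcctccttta

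The printed stretch of Cbfa2t3 holds 43 CG dinucleotides, that of Nol4l 29 and that of Runx1 27, whereas Erg and Sgms1 each hold 3 and Rreb1 holds 6. The bin of the Cbfa2t3 start had 29.6 RPM in GFI1-WT and 26.4 in GFI1-KD, and that of Runx1 25.5 and 22.2. The Erg start, poor in CG, lay in a bin at 8.05 and 9.64. The contrasting starts of Sgms1 and Rreb1 had 5 and 3 reads in GFI1-WT and 1 and 5 in GFI1-KD. A start poor in CG was thus also found among the members.

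Short motifs were counted in the same windows. The letters GGAAG, common to ETS sites, occurred on either strand in 74.6% of 300-base windows around starts in members and in 71.3% of all autosomal windows. AGATAA, recognised by GATA factors, occurred in 7.3% of the former, 11.2% of the latter and 15.6% of distal starts under 60 reads. TGTGGT, recognised by RUNX factors, was found in 12.5%, 16.7% and 21.4% in the same order. AATCANNGC, the GFI1 core, was found in 2.8%, 3.3% and 3.1%. Starts in marked bins near a gene end, within 3-fold, were close to those in members. Their shares were 75.4% for GGAAG, 5.7% for AGATAA, 12.1% for TGTGGT and 3.5% for AATCANNGC. AGGGGGC, a CTCF core, went the other way from AGATAA and TGTGGT. It was found in 13.2% of windows in members, 10.7% of all and 5.0% of distal starts under 60 reads. Median G + C was 58.3%, 53% and 47.3% in the same order, and its part in these shares was not tested. A match is a string of letters and not a bound site.

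Members with a start were more heavily marked than the others and closer to level between the libraries. Their median was 10.7 RPM in GFI1-WT and 12.1 in GFI1-KD, with a median log2 ratio of 0.13, against 4.25 and 6.08 and a median of 0.47 in the 10490 members without one. With each of these 386 bins counted once, by the first start listed for it, the 188 with an observed to expected CG above 0.6 had a median of 270 summed reads and a log2 ratio of -0.01, and the other 198 had 164 reads and 0.23. Starts on chromosome 18 were not analysed here, so its 340 members are counted among those without a start. The share of members that held a start went from 0.88% at 60 to 79 reads to 21.3% at 300 reads or more.

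Over all 10876 members the median was 4.36 RPM in GFI1-WT and 6.19 in GFI1-KD, from a median of 96 summed reads. The median log2 ratio was 0.46, a 1.38-fold higher level in GFI1-KD, with quartiles of 0.01 and 0.85, and 8218 bins (75.6%) leaned that way. "Stable" therefore describes only the 3-fold bound: 80.6% of the bins lay within 2-fold and 50.9% within 1.5-fold. GFI1-KD gave 51.6% of all kept reads, and the exact 95% binomial interval of a bin's GFI1-KD share lay wholly above this in 5235 bins (48.1%), wholly below in 967 (8.89%) and included it in 4674 (43.0%). These intervals cover counting error only, and with 1 library per group they say nothing of the spread between animals. In bulk cells a change in the number of marked cells and a change in the mark per cell cannot be told apart.

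**Figure D1:**
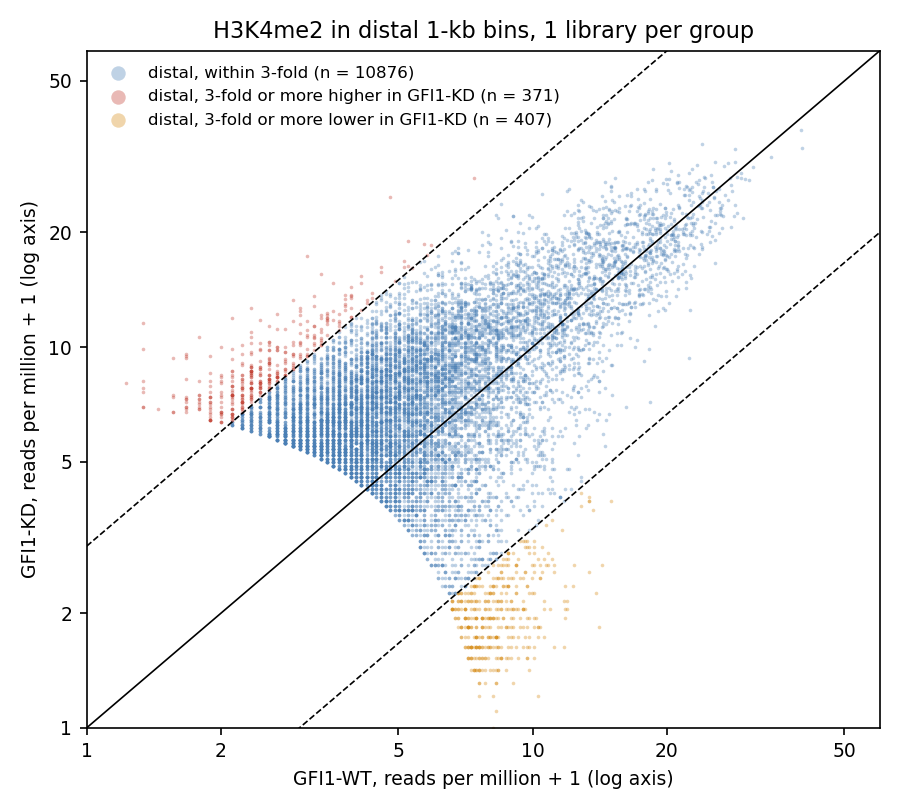
Each point is a distal 1-kb bin with 60 or more reads, plotted by RPM + 1 in GFI1-WT (x axis) and GFI1-KD (y axis), both log axes. The solid line marks equal levels and the dashed lines the 3-fold bounds that define the 10876 members. The cloud lies above the line at low levels and closes on it at the top.

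The lean to GFI1-KD differed with the level of the mark. The median log2 ratio was 0.51 in members of 60 to 79 reads, 0.54 at 80 to 99 and at 100 to 149, 0.42 at 150 to 199, 0.25 at 200 to 299 and 0.06 in the 464 members with 300 or more. Bins within 10 kb of a gene end, under the same bound, stood at 0.25, 0.24, 0.20, 0.10, -0.01 and -0.01 in these classes. Distal bins too weak for membership were compared by another measure, the ratio of pooled RPM without the pseudocount. Only the weakest went the other way: GFI1-KD was 0.778 of GFI1-WT in bins of 1 to 9 reads and 0.850 at 10 to 19. The ratio was 1.03 at 20 to 39 reads and 1.19 at 40 to 59. At a matched 60 to 99 reads the median rose with distance from the gene end, from 0.18 under 1 kb and 0.10 at 1 to 2 kb to 0.44 at 5 to 10 kb, and stayed between 0.50 and 0.59 in all classes beyond 10 kb. The medians of the 19 autosomes lay between 0.39 and 0.51. The share of reads in marked bins was also higher in the GFI1-KD library. Scaled to those reads, the member median was lower but stayed positive, and the median near gene ends turned negative, as given below. Promoter signal at Itgam and Mmp8 moved in the direction of the lean and that at Ly6g and Ltf did not. The part of the cells behind these promoter signals was not tested.

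**Figure D2:**
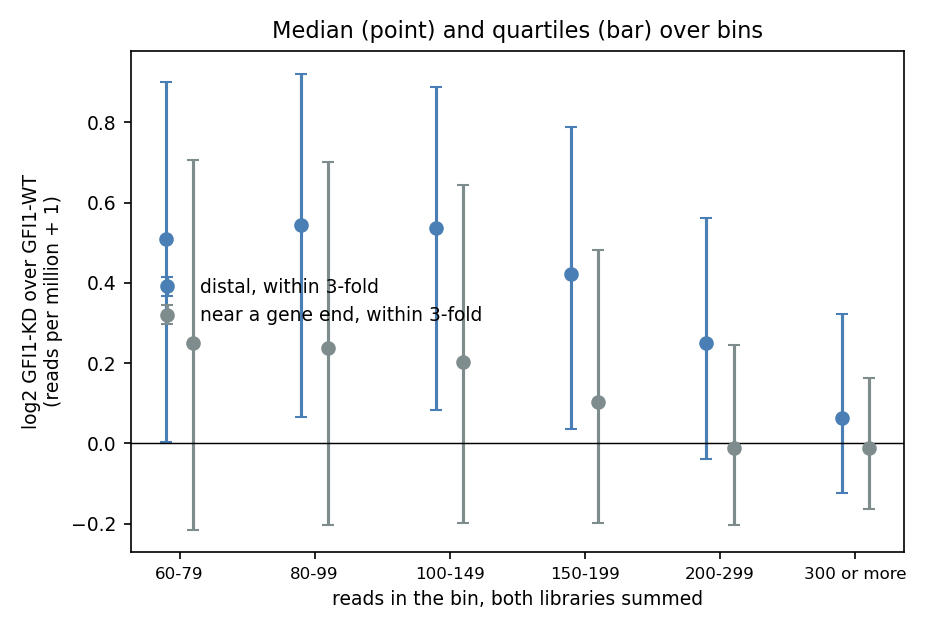
The log2 ratio of GFI1-KD over GFI1-WT (y axis) is shown by the summed reads of the bin (x axis) for distal bins and for bins near a gene end, both within 3-fold, as the median and quartiles over bins. Distal medians stay near 0.5 up to 149 reads and fall to 0.06 at 300 or more.

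The mark formed a narrow summit. Mean GFI1-WT signal over the members was 5.66 RPM in the bin itself, 3.44 and 3.45 in the neighbours 1 kb to either side, 1.90 and 1.88 at 2 kb and 1.16 and 1.17 at 5 kb. GFI1-KD exceeded GFI1-WT 1.32-fold in the bin, 1.25-fold at 1 kb, 1.17-fold at 2 kb and 1.13-fold and 1.11-fold at 5 kb, so the excess was concentrated in the summit, where the choice of members also acts. Near gene ends the summit ratio was 1.07. Reads of opposite strands were most often 150 bases apart in GFI1-WT and 155 in GFI1-KD.

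**Figure D3:**
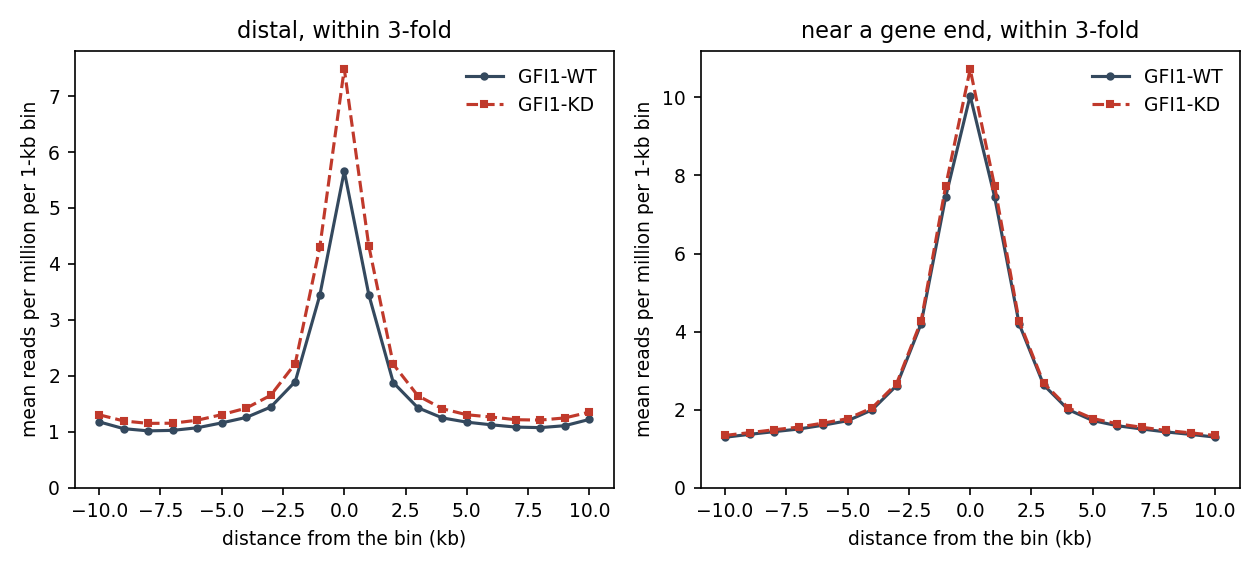
Mean RPM per 1-kb bin (y axis) are plotted against the distance in kb from the member bin (x axis) for distal members (left) and bins near a gene end within 3-fold (right), each with 1 GFI1-WT and 1 GFI1-KD library. The distal summit is 5.66 in GFI1-WT and 7.49 in GFI1-KD, and the lines run close together on the right.

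The members with the most reads gave a mixed picture. The 2 with the most reads, chr2:98666001-98667000 with 693 and chr2:98662001-98663000 with 659, lay over 1 Mb from any coding gene, and 42.4% and 46.6% of the reads aligned there had a mapping quality under 10. In 19 members over 20% of reads were of that kind, and the median over members was 0%. Without these 19 the count was 10857 and the median log2 ratio 0.46. An input library was not used, so in such bins reads of the mark cannot be told apart from background. Next came a bin in the body of Rai1 at chr11:60176001-60177000, with 33.3 and 30.5 RPM, the Nol4l start described above, and chr1:181256001-181257000, 20.1 kb from Gm38664. Rara, the retinoic acid receptor alpha and the direct target of ATRA, held a bin of 27.4 and 29.6 at chr11:98960001-98961000. The bin at chr2:18609001-18610000, nearest to Commd3, stood above the rest in ratio, with 23.0 and 33.1. In the other 9 of these 10 the log2 ratio lay between -0.26 and 0.22.

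Of the members, 7862 (72.3%) lay inside an annotated gene, with a median log2 ratio of 0.43, and 3014 outside, with 0.56. The share inside a gene was 74.4% in bins near a gene end within 3-fold. It was 67.7% in distal bins 3-fold or more higher in GFI1-KD and 88.0% in those 3-fold or more lower. The members formed 6951 unbroken runs, of which 4447 were single bins and the longest was 15 bins. Joined over gaps of up to 12.5 kb, they gave 5177 clusters, and 79 clusters of 10 or more bins held 1046 members. The largest had 30 bins over 57 kb of Rreb1, a zinc-finger factor of the RAS pathway, at chr13:37825001-37882000, and was nearly level, with a ratio of summed RPM of 0.910. Akap13, an anchor of protein kinase A (25 bins, 1.02), and Mbnl1, a splicing regulator (23 bins, 1.02), were level too. Clusters at the ETS factor genes Erg and Fli1, each of 22 bins, stood at 1.45 and 1.51, and those at Rin3, a RAB5 exchange factor (19 bins), and Pstpip1, an adaptor of the leukocyte cytoskeleton (17 bins), at 1.796 and 1.814. Tbc1d2b, with 18 bins, stood at 0.883. Every bin in these clusters met the same 3-fold bound, and their summed ratios still ranged from 0.883 to 1.81.

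Members had 3357 nearest coding genes, 16.2% of the 20661 on the autosomes. Of these genes, 1275 had a single bin, and 188 with 10 or more held 2765 bins. Akap13 led with 36 bins, followed by Mbnl1 with 33, Pde4d and Runx1 with 32, Rreb1 with 30, Asap1 and Runx2 with 28, Foxp1 with 27, and Maml3 and Sgms1 with 26. Nearness is a rule of assignment and does not show which gene a bin serves, and 607 bins lay over 100 kb from the gene they were given to.

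Among the listed stem and progenitor regulators, 19 of 26 (73.1%) had a member bin, against 16.2% of all autosomal coding genes. They had 158 bins in all, with a median log2 ratio of 0.37. Runx1 had 32, of which the best, chr16:92698001-92699000, lay beside the start printed above and stood at 23.1 and 24.7 RPM. Fli1 had 25, led by chr9:32509001-32510000 with 8.72 and 16.98. Erg had 22, led by chr16:95455001-95456000 with 11.4 and 15.3. In the bins named, Fli1 and Erg had GFI1-KD shares of 67.5% (95% interval 61.2 to 73.4) and 58.9% (52.5 to 65.1), while that of Runx1 was close to level. Over all bins of a gene this order did not hold: the median log2 ratio was 0.56 at Runx1, 0.38 at Fli1 and 0.39 at Erg. Kit, the stem cell factor receptor, had 2, and Gata2, a stem and mast cell factor, had 1, with 2.23 RPM in GFI1-WT and 6.92 in GFI1-KD, a log2 ratio of 1.29.

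Among myeloid regulators and effectors 13 of 30 genes (43.3%) had 62 bins, with a median log2 ratio of 0.74. Cxcr4, the receptor that holds progenitors in the marrow, had 14 bins, all outside it, and Klf4, a factor of monocyte differentiation, had 11. Spi1, which encodes PU.1, had 5, led by chr2:91097001-91098000 with 13.0 and 19.1 RPM. Irf8, which drives monocyte fate, had 1 bin 75.8 kb from the gene, chr8:120832001-120833000, with 4.69 and 5.14. Zeb2, a zinc-finger repressor needed for monocyte and dendritic cell fates, ran against the list: its 6 bins had a median of -0.87, led by chr2:45100001-45101000 with 8.05 and 3.98.

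Other groups had bins at a smaller share of their genes than these 2 lists, but not all lay below the 16.2% of all autosomal coding genes. Lymphoid genes had bins in 6 of 16 (37.5%), with 45 bins, 17 of them at Bach2. Mast cell, basophil and eosinophil genes had bins in 3 of 9 (33.3%). Genes of other tissues had 1 bin each at 5 of 18 (27.8%), with a median log2 ratio of -0.30. Below that share were erythroid and megakaryocyte genes, with bins in 2 of 14 (14.3%). So were the repressor complex and H3K4 methylation enzymes, in 1 of 16 (6.25%), Phf21a with 4 bins. These counts depend on gene length and on the gene deserts around a gene, since a bin must lie over 10 kb from every gene end.

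LSD1 knockout gives a second readout, in leukaemia cells, that the choice of bins did not use. Of the 3357 nearest genes, 2685 (79.98%) had enough counts to be tested by edgeR's quasi-likelihood test, against 57.3% of all autosomal coding genes. At a Benjamini-Hochberg adjusted p under 0.05 over all 14663 tested genes, 1118 of the 2685 (41.6%) were called higher and 592 (22.0%) lower in H9M KO than in H9M CTL. Of all tested genes 26.1% were called higher and 25.4% lower. In MN1 1177 (43.8%) were called higher and 597 (22.2%) lower, against 28.7% and 26.3% of all tested genes. Only genes with room over 10 kb from every gene end, or neighbours of such room, can be named by a member, and coding genes over 20 kb give a second background: 32.8% were called higher and 25.5% lower in H9M, and 35.6% and 26.7% in MN1. The median log2 fold change of the nearest genes was 0.10 in H9M and 0.11 in MN1, against 0.00 and 0.01 over all tested genes.

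Genes with more bins had a higher share called higher, counting changes of any size. It was 36.7% in H9M and 38.3% in MN1 for genes with 1 bin (n = 908), 40.4% and 44.2% for 2 to 4 bins (n = 1152), 51.0% and 49.2% for 5 to 9 (n = 445), and 51.7% and 56.1% for 10 or more (n = 180). The share called lower stayed between 17.8% and 24.2%. Calls of 2-fold or more higher showed no such climb: they made up 12.3% of genes with 1 bin and 12.2% of those with 10 or more in H9M, and 13.4% and 11.1% in MN1, against 8.68% and 9.88% of all tested genes. It also differed by lean: genes whose bins had a median log2 ratio at or below 0 were called higher in 33.6% (H9M) and 37.5% (MN1) of 598 cases, and those above 1 in 46.2% and 47.3% of 355. Across the 2685 genes, which are not independent replicates, the median bin ratio and the knockout log2 fold change had a Spearman correlation of 0.13 in H9M and 0.11 in MN1. Genes nearest to distal bins 3-fold or more higher in GFI1-KD were called higher in 55.4% and 50.6% of 251 cases, and those nearest to bins 3-fold or more lower in 37.9% and 44.0% of 232. Some genes belong to more than 1 of these sets.

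**Figure D4:**
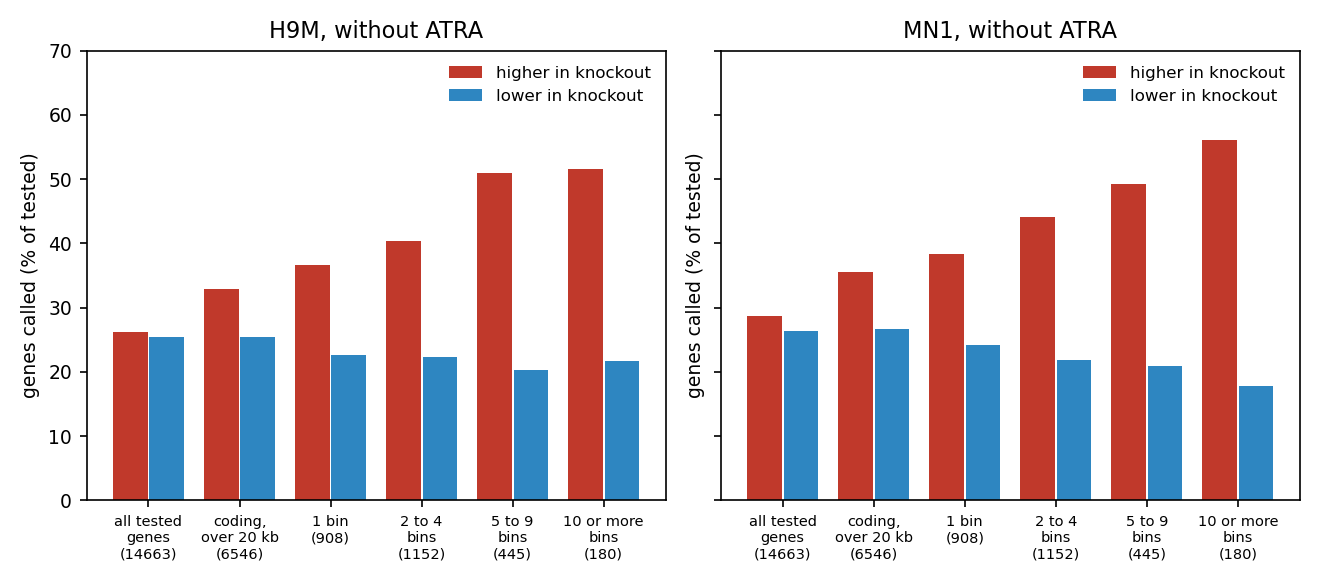
Bars give the percentage of tested genes (y axis) called higher or lower in LSD1 knockout cells of H9M (left) and MN1 (right), for all tested genes, for coding genes over 20 kb, and for nearest genes grouped by their number of distal members, with the number of genes in brackets. The share called higher at any size climbs from 36.7% to 51.7% in H9M and from 38.3% to 56.1% in MN1 between 1 bin and 10 or more.

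Of the 10 genes with the most bins, Sgms1 and Maml3 moved by 2-fold or more, both in H9M, and the others by less. Runx1 (ENSMUSG00000022952, chr16:92601466-92826074) was at 74.5, 77.7 and 75.5 CPM in H9M KO and 63.4, 64.8 and 64.0 in H9M CTL, a log2 fold change of 0.26 (SE 0.05, edgeR adjusted p = 3.07e-05). In MN1 it was at 51.4, 52.7 and 50.2 against 29.9, 29.6 and 29.6, a log2 fold change of 0.79 (SE 0.05, edgeR adjusted p = 6.41e-14). Knockout and control libraries did not overlap in either model. Akap13 rose by 0.22 in H9M and 0.25 in MN1 on the log2 scale, Rreb1 by 0.16 and 0.30, and Pde4d, a cAMP phosphodiesterase, by 0.14 and 0.60. Sgms1, a sphingomyelin synthase, rose by 1.8 and 0.69. Maml3, a Notch coactivator, was the exception that fell in both: its libraries were at 26.8, 25.6 and 25 CPM in H9M KO against 54.9, 54.2 and 53.0, and at 68.7, 69.1 and 65.8 against 91.9, 103.8 and 100.6 in MN1, log2 fold changes of -1.05 and -0.55.

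Asap1 and Foxp1 moved in opposite directions in the models. Asap1, an ARF GTPase-activating protein of adhesion sites, was at 83.0, 87.4 and 83.6 CPM in H9M KO against 56.7, 52.8 and 57.3, and at 39.3, 37.2 and 39.6 in MN1 KO against 50.1, 53.2 and 52.0. It rose by 0.62 in H9M and fell by 0.42 in MN1. Foxp1, a forkhead repressor of monocyte maturation, rose by 0.13 in H9M and fell by 0.30 in MN1. Runx2 rose by 0.23 in H9M and had a log2 fold change of -0.05 in MN1 (adjusted p = 0.359, edgeR). Mbnl1 missed the threshold in both, with 0.14 and 0.13 (adjusted p = 0.0986 and 0.107, edgeR). The H9M calls of Rreb1, Pde4d and Foxp1 were lost when some single libraries were left out: Rreb1 went to 0.06 (adjusted p = 0.397) without H9M KO replicate 2, Foxp1 to 0.08 (adjusted p = 0.127) without the same library, and Pde4d to 0.11 (adjusted p = 0.133) without H9M CTL replicate 2, all by edgeR.

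Of the 19 stem and progenitor genes with bins 17 were tested. In H9M 7 were called higher and 5 lower, and in MN1 8 and 6. Of all tested genes 26.1% were called higher and 25.4% lower in H9M, and 28.7% and 26.3% in MN1. The median log2 fold changes of the 17 were 0.02 and 0.01. The ETS factors differed. Erg was at 159, 170 and 160 CPM in H9M KO against 70.5, 74.5 and 73.0, and at 181, 173 and 181 in MN1 KO against 117, 116 and 117, log2 fold changes of 1.18 and 0.61. Fli1 was at 86.7, 84.0 and 85.7 against 118, 116 and 123 in H9M and at 90.9, 101.1 and 97.2 against 80.8, 78.8 and 84.0 in MN1, log2 fold changes of -0.46 and 0.24, without overlap in either model. Kit fell by 1.00 and 0.37, and Myb, a proliferation factor of progenitors, fell by 0.50 and 0.26. Gata2 rose by 0.91 and 0.50. Cbfa2t3 rose by 0.38 in MN1 and had a log2 fold change of -0.01 in H9M (adjusted p = 0.887, edgeR).

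All 13 myeloid genes with bins were tested. In H9M, where 26.1% of all tested genes were called higher, 10 were, with a median log2 fold change of 0.90. The other 3 missed the threshold there: Cebpb with -0.15, Egr2 with -0.38 and Il1b with 0.86 (adjusted p = 0.268, 0.571 and 0.102, edgeR). In MN1 6 were called higher and 2, Cxcr4 and Cebpb, lower, against 28.7% and 26.3% of all tested genes. The MN1 median was 0.19. Irf8 was at 395, 390 and 401.1 CPM in H9M KO against 7.75, 8.77 and 7.65, a log2 fold change of 5.63 (SE 0.06, edgeR adjusted p = 9.47e-35), and at 24.1, 25.2 and 24.6 against 8.94, 9.11 and 8.81 in MN1, 1.46. Its single member bin was nearly level between GFI1-WT and GFI1-KD, as given above. Ccr2, a monocyte chemokine receptor, rose by 2.49 in H9M and 0.19 in MN1, the latter with an adjusted p of 0.0320 by edgeR and 0.0883 by DESeq2. Klf4, at 2.28, 2.43 and 2.23 CPM against 0.308, 0.248 and 0.510 in H9M, rose by 2.71, and by 1.32 in MN1. Spi1 rose by 0.18 in both, and Itgam, the CD11b integrin chain, by 0.90 and 1.94. Zeb2, whose bins leaned to GFI1-WT, was at 121, 122 and 119 CPM in H9M KO against 56.6, 52.3 and 55.5, a rise of 1.15, and at 62.3, 58.9 and 63.0 against 61.8, 62.3 and 63.9 in MN1, where the groups overlapped (adjusted p = 0.553, edgeR). Cxcr4 fell by 1.30 in MN1, from 46.1, 47.7 and 50.01 CPM to 19.5, 18.8 and 20.2. In H9M its log2 fold change was 0.09, and that call (adjusted p = 0.0322, edgeR) was lost when any of 5 of the 6 compared libraries was left out, with adjusted p from 0.0554 to 0.0932, and stayed only without KO replicate 2.

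**Figure D5:**
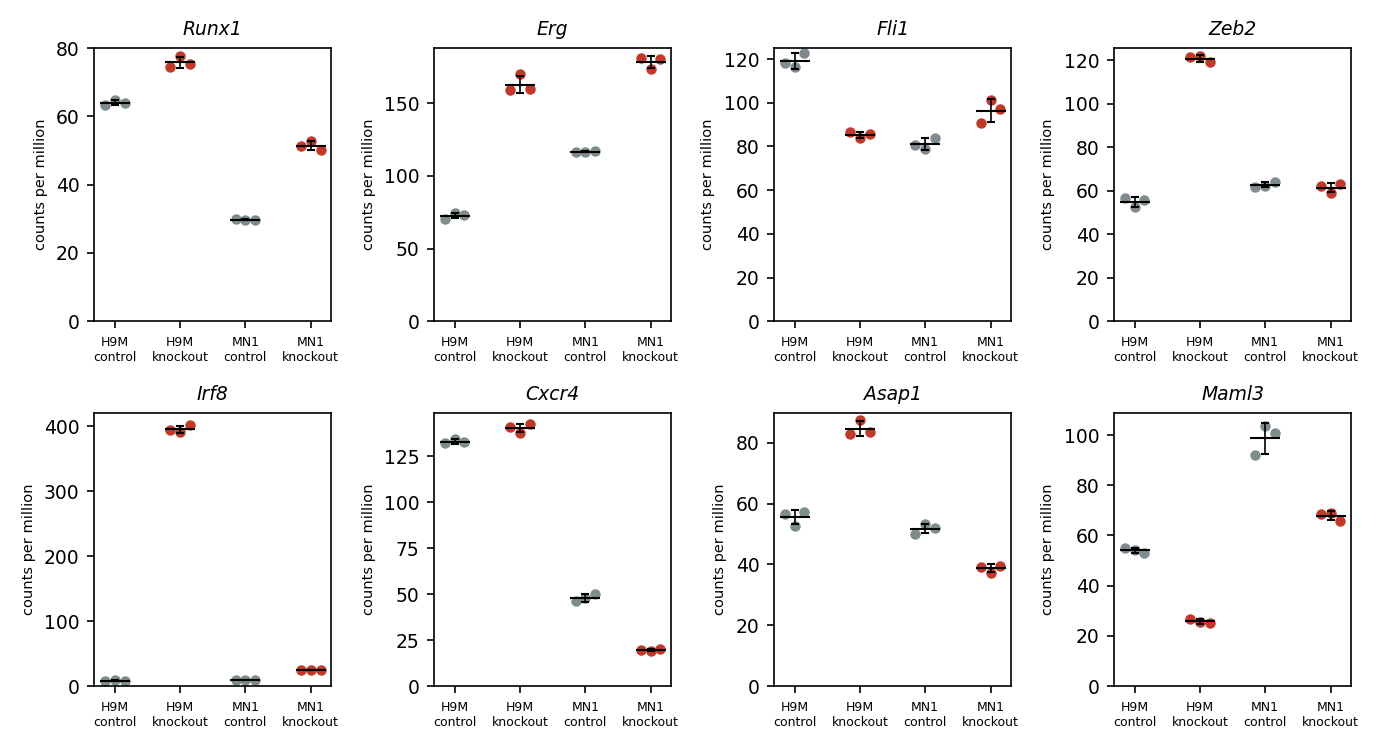
CPM (y axis, from 0) are shown for 8 nearest genes in the 3 libraries of each group without ATRA, with the mean as a bar and the SD as whiskers. Irf8 stands near 395 only in H9M knockout libraries, Asap1 and Fli1 move in opposite directions in H9M and MN1, and Maml3 is lower in knockout libraries of both.

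Few genes of the other lists with bins were tested. Of 4 lymphoid genes 1 was called higher and 1 lower in H9M and 2 higher in MN1. Of 3 mast cell, basophil and eosinophil genes 2 were called higher in each model. Over all tested genes the shares called higher and lower were 26.1% and 25.4% in H9M and 28.7% and 26.3% in MN1. Vwf, the platelet adhesion protein, rose by 2.85 and 1.8, and Phf21a, a subunit of the LSD1 complex, by 0.25 in MN1, with 0.09 in H9M (adjusted p = 0.118, edgeR). The 5 genes of other tissues had too few counts to be tested.

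The nearest genes that moved most had 1 to 11 bins. Of all 3357 nearest genes, 1275 had 1 bin and 188 had 10 or more. Dock4, a RAC exchange factor with 7 bins (median log2 ratio 1.02), rose by 6.08 in H9M and 4.70 in MN1. Arhgap24, a RAC GTPase-activating protein with 6 bins (0.76), rose by 6.67 and 2.48. Ly6c2, a monocyte surface antigen with 2 bins that leaned to GFI1-WT (-0.56), rose by 1.27 in H9M and 5.06 in MN1. Mgam, a maltase-glucoamylase with 2 bins (0.79), rose by 2.36 and 4.92. At the other end Tgm2, a transglutaminase with 4 bins (0.07), was at 0.893, 0.798 and 1.39 CPM in H9M KO against 116, 117 and 120, and fell by 6.79 and 4.30. Thbs1, the secreted thrombospondin 1 with 7 bins (0.97), fell by 3.78 and 1.68. Car2, a carbonic anhydrase with 1 bin (-1.31), fell by 2.06 and 1.00. Adgrl2, with 11 bins (0.51), had log2 fold changes of -1.98 in H9M, from few counts, and -1.69 in MN1. Rara rose by 1.44 in H9M, from 24.7, 24.4 and 24.3 CPM to 64.7, 68.5 and 64.6, and by 0.49 in MN1. Pstpip1, with 17 bins, rose by 0.25 and 0.59, and Rin3, with 21, fell by 0.39 in H9M and had a log2 fold change of 0.11 in MN1, which no longer passed when any of 5 single libraries was left out. Rara, Rin3 and Pstpip1 were chosen after their values were seen. Bins and RNA come from different cells and from different losses, of GFI1 and of LSD1, so no bin was measured where its gene's change was measured.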

How the data were processed

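The submitters' processing notes name STAR 2.5.3 and mm10 for RNA, and CASAVA 1.8.2, BWA and bedtools 2.27.0 with GRCm38 for ChIP. The deposited ChIP tables list 1 aligned read per line, with its mapping quality as a score. From these, 5' ends of reads with a score of 10 or more were counted in 1-kb bins and scaled to 1000000 kept reads, and a pseudocount of 1 was added before ratios. All kept reads differ in position or strand. An input library was not used here. Genes and starts come from RefSeq tables of GRCm38.p6, without exons. The nearest gene is the closest coding gene to the bin centre.

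The authors deposited RNA as whole-number counts for 48795 genes, with 22402558 to 32674685 counts per library. How genes were counted, and on which strand, is not stated in these sources, so overlapping genes are uncertain. Genes were filtered by filterByExpr and scaled by TMM in edgeR 4.0.16 (R 4.3.3), and 14663 were tested in 1 model of 8 groups by glmQLFit and glmQLFTest (16 residual degrees of freedom), two-sided, with Benjamini-Hochberg adjustment. The test and the bin rule were checked on simulated data.

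Members, gene lists and tests were chosen with earlier results of these data known. Named genes are the 10 with the most bins, list genes, and called nearest genes with the largest or smallest log2 fold change that reached a mean of 5 CPM in a group and whose replicates did not overlap; a selection of them is given. For RNA the alternatives were DESeq2 1.42.0, RLE scaling, no filter, a model of the compared groups only, a replicate block and leaving out each library. For bins, mapping quality, bin offset, read minimum, distance, fold bound, read shift, gene overlap and scaling were varied.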

Additional observations from a re-analysis of the deposited data

Results flagged for a closer look

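The response to LSD1 knockout differed between MN1 and H9M for 1155 of the 2685 tested nearest genes of the distal bins (43.0%) at an adjusted p under 0.05, against 28.4% of all 14663 tested genes and 34.4% of coding genes over 20 kb. The difference was tested as an interaction in the edgeR model, with Benjamini-Hochberg adjustment over all tested genes, and is given as the MN1 log2 fold change minus that of H9M, with 3 libraries per group. The models carry different run tags, so model and run cannot be told apart for baseline levels, while each knockout was compared with controls of its own model.

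The values below are those of nearest genes of the report that passed. Among genes with the most bins the difference was -1.05 for Asap1 (adjusted p = 1.15e-12), -1.11 for Sgms1 (2.42e-06), 0.53 for Runx1 (5.40e-07), 0.51 for Maml3 (1.11e-05), 0.46 for Pde4d (3.70e-06), -0.43 for Foxp1 (7.55e-07) and -0.28 for Runx2 (0.00336), all by edgeR. Asap1 and Foxp1 were called in opposite directions. Among stem and progenitor regulators it was 0.71 for Fli1, also called in opposite directions, 0.63 for Kit, -0.57 for Erg, -0.42 for Gata2, 0.39 for Cbfa2t3 and 0.24 for Myb.

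Among myeloid genes it was -4.17 for Irf8, -2.29 for Ccr2, -1.40 for Klf4, -1.39 for Cxcr4, -1.19 for Zeb2 and 1.04 for Itgam. Among nearest genes with large changes it was -4.20 for Arhgap24, 3.79 for Ly6c2, 2.56 for Mgam, 2.497 for Tgm2, 2.10 for Thbs1, -1.38 for Dock4 and 1.06 for Car2. It was -0.95 for Rara, 0.50 for Rin3 and 0.34 for Pstpip1.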

How the results depend on the processing

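The members numbered 10876, and 10941 with no filter on mapping quality. The count moved to 18042 with 40 summed reads, 5096 with 100, 16657 at 5 kb from gene ends, 5731 at 20 kb and 3014 outside genes. The median log2 ratio of 0.462 stayed positive: it was 0.451 with bins shifted by 500 bases, 0.43 with 40 reads, 0.40 with 100, 0.44 at 5 kb, 0.47 at 20 kb, 0.35 with a 2-fold bound, 0.455 with 5' ends moved by 75 bases, 0.56 outside genes, 0.38 when scaled to the reads in marked bins, and 0.54 with a pseudocount of 0.1 (chosen after seeing the data). Under that scaling the median of bins near a gene end went from 0.07 to -0.044, so its sign rests on the scaling. The H9M counts of nearest genes called higher and lower, 1118 and 592, ranged over 1055 to 1097 and 530 to 566 with 1 library left out, and the MN1 counts, 1177 and 597, over 1101 to 1176 and 536 to 561. The replicate block gave 1120 and 596 in H9M and 1191 and 603 in MN1; correlations of same-numbered libraries, -0.033 to 0.020, did not pair them. Depth limits the bins: at 60 reads counting error alone spans a wide range of ratios, and 1 library per group gives no spread.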

Other observations

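On the X chromosome, which the choice of bins left out, 1259 bins held 60 or more reads, and 165 of them met the same distance and ratio bounds. Their median log2 ratio of GFI1-KD over GFI1-WT was 0.32, and 6 distal bins lay at or above 3-fold and 0 at or below the lower bound. The libraries had 170889 and 196291 reads on that chromosome. They also differed on the Y chromosome, with 1530 reads in GFI1-WT and 98 in GFI1-KD. Whether sex had a part in the X values was not tested.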
